A study of Mus musculus with 8 samples.

Results

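The cyclin-dependent kinase (CDK) inhibitors of the CIP/KIP and INK4 families were examined in tissue labelled as ventricular heart from mouse embryos at embryonic day 11.5. They are 7 genes chosen by symbol, 3 of the CIP/KIP family (Cdkn1a, Cdkn1b, Cdkn1c) and 4 of the INK4 family (Cdkn2a, Cdkn2b, Cdkn2c, Cdkn2d), and they stand on 8 of the 52778 rows of the table. RNA sequencing compared 4 libraries of conditional knockout embryos (cKO) with 4 control libraries. In cKO, both floxed copies of Rps19bp1, which encodes a nucleolar partner of ribosomal protein S19, were to be deleted by Cre recombinase under Xmlc2, that is, in cardiomyocytes and not in the other cells of the ventricle. The series text gives cKO as Rps19bp1 fl/fl with 1 Xmlc2-Cre allele (+/-). It does not give the alleles of the controls, and the genotype field reads C57BL/6 WT for all 8 libraries, so groups were taken from the titles. The titles say heart, and the tissue field and the series text say ventricular heart tissue. No drug or other treatment was given. The 4 libraries of a group are called biological replicates, and the texts do not say whether each is 1 embryo or a pool.

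CDK inhibitors hold back the cell cycle by binding the kinases that drive it. The CIP/KIP proteins, p21 (Cdkn1a), p27 (Cdkn1b) and p57 (Cdkn1c), bind complexes of cyclins with CDKs, while the INK4 proteins bind Cdk4 and Cdk6 and keep them from D-type cyclins. Cdkn1a is a classical target of the transcription factor p53, and Cdkn1c is imprinted and expressed mainly from the maternal copy. Cdkn2a encodes both an INK4 protein and, from another first exon, the Arf protein that protects p53 from Mdm2.

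The RNA of 1 of the 7 genes rose strongly in cKO. Cdkn1a stood at 5.83 times its control level. Cdkn1b, Cdkn1c, Cdkn2c and Cdkn2d had lower means in cKO by amounts that did not pass the test over all genes. Cdkn2b was about at the limit of what was tested and had higher values in every cKO library, and Cdkn2a was close to 0 in both groups.

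The sequence before the Cdkn1a start sites is shown because it is the gene that changed and because RefSeq gives it 2 first exons with different promoters. The start sites lie 2790 bp apart on the plus strand of chromosome 17, and the table has 1 value for both. Each line gives the 250 bases before the start, 5′ to 3′, from RefSeq on GRCm38.p6. In the line for the first start site (chr17:29090729-29090978) capitals mark a stretch of CATG, any 6 bases and CATG, and in the line for the second (chr17:29093519-29093768) they mark GGGCGG and TATAA.

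Cdkn1a, first start site: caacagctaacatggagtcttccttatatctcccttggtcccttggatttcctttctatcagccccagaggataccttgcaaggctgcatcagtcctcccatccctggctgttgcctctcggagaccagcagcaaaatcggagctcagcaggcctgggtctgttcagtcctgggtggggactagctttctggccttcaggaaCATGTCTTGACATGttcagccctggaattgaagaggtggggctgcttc

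Cdkn1a, second start site: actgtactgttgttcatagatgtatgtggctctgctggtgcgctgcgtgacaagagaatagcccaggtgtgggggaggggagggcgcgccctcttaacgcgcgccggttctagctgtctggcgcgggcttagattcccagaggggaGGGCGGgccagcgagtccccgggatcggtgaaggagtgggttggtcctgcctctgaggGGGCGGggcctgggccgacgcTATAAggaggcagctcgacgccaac

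The p53 consensus is a 10-base unit that stands 2 times in a row. Windows of 300 bases, from 250 before to 50 after a start, were searched on both strands. In the window of the first start site the sequence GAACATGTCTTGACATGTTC, from base -51 to base -32 before the start, matched the consensus with 1 mismatch. Such a match was found in 29 of 32851 windows of the same length (0.0883%), and the stretch of CATG, any 6 bases and CATG, which reads the same on both strands and lies inside this match, in 0.712% of them. The other 8 windows of these genes had neither. A match describes the letters and is not a measured binding site.

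The second Cdkn1a window had 23 CpG dinucleotides against 2 in the first, and 64.7% against 54.7% of its bases were G or C. It held GGGCGG 2 times, counting the opposite strand, where 35.7% of all windows hold it at least once, and TATAA 1 time. TATAA, found on either strand in 24.9% of all windows, also stood 1 time in the first Cdkn1a window. There it lies on the opposite strand, so the printed line reads ttata, and it is not in capitals. Windows were found for 6 of the 7 genes and not for Cdkn1c. GGGCGG was also found in windows of Cdkn1b, Cdkn2a, Cdkn2b, Cdkn2c and Cdkn2d, from 1 to 5 times, so this motif did not set Cdkn1a apart.

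The targeted gene was checked in each library before the inhibitors. Rps19bp1 stood at 15.2, 11.8, 13.7 and 19.2 TPM in cKO replicates 1 to 4 and at 40.9, 44.2, 34.7 and 40.05 TPM in control replicates 1 to 4, so the values match the labels (log2 difference -1.37, limma adjusted p = 0.000508). TPM is a share of the library's RNA corrected for transcript length, so levels of different genes can be set side by side. Neuronal genes were looked at because the protocol for RNA extraction names cortical neurons in culture. Of 10 neuronal genes 6 had a mean under 1 TPM, Tubb3 had the highest mean at 8.78 TPM, and 1 of the 4 tested passed, Nefl, which was lower in cKO (log2 difference -0.50, limma adjusted p = 0.0219), and the summed level of 17 cardiomyocyte genes lay between 54260 and 60521 TPM over the 8 libraries. Fitted with limma on log2(TPM + 1) over 15541 rows with a mean of at least 1 TPM, 6.4% of rows had an adjusted p under 0.05. Those with more RNA in cKO were 2.16% of tested rows, and those with less were 4.23%. The higher rows were 33.8% of the calls as deposited, 50.3% after quantile normalization, 44% after median-ratio scaling and 49.5% after rescaling without mitochondrial and globin rows. Mitochondrial transcripts took 13.2% to 16.2% of TPM in cKO and 11.4% to 12.2% in control.

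**Figure D1:**
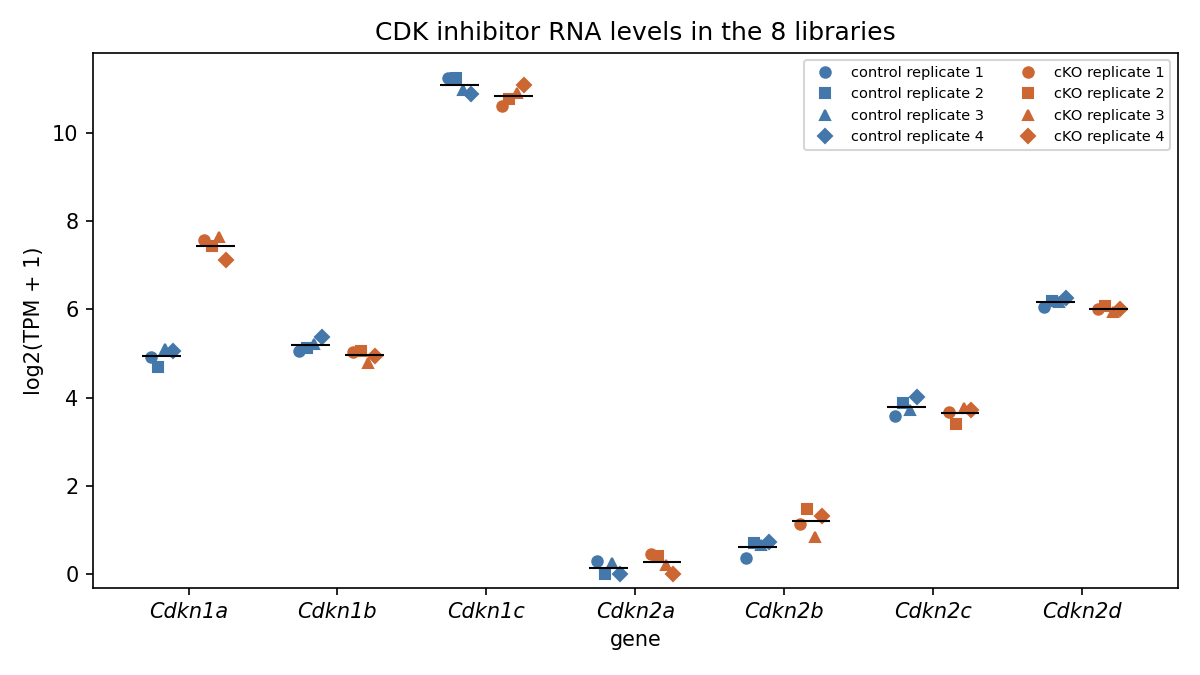
Levels of the 7 CDK inhibitor genes on the vertical axis as log2(TPM + 1), for each of the 4 control libraries (blue) and 4 cKO libraries (orange), with a symbol for each replicate and a line at the group mean. Cdkn1a is the gene whose groups lie far apart, and Cdkn1c is the most abundant in both groups.

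Among the CIP/KIP genes, Cdkn1a encodes p21, which binds cyclin-CDK complexes and the replication clamp Pcna. Its row on the primary chromosome (chr17:29090979-29100722, plus strand, GRCm38) held 190, 171, 198 and 137 TPM in cKO replicates 1 to 4. The control replicates 1 to 4 held 29.1, 24.9, 33.1 and 32.4 TPM. The lowest cKO library was thus more than 4 times as high as the highest control library, and cKO replicate 4 was the lowest of its group. The difference in mean log2(TPM + 1), cKO minus control, was 2.50 (SE 0.120, limma adjusted p = 6.53e-06, 95% interval 2.23 to 2.77, higher in 4 of 4 cKO libraries). By its p-value Cdkn1a was in place 3 of all tested rows. The symbol also stands on a row of an alternate scaffold, which is listed at 0 in all 8 libraries, so adding it changed nothing.

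Replicate 4, the cKO library with the least Cdkn1a, was the one with the most Rps19bp1 (19.2 TPM). The order did not hold through the group, since cKO replicate 2 had the least Rps19bp1 (11.8 TPM) and the second lowest Cdkn1a. Without cKO replicate 4 the log2 difference of Cdkn1a was 2.61.

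Cdkn1b encodes p27, which is held low in cycling cells mainly by degradation. It lies on chr6:134920401-134925525 (plus strand) and stood at 31.8, 32.5, 26.6 and 29.9 TPM in cKO replicates 1 to 4. The control replicates held 32.5, 33.7, 36.4 and 40.3 TPM. The groups did not overlap, but the highest cKO and the lowest control library were less than 0.1 TPM apart. The log2 difference was -0.23 (SE 0.0811, limma adjusted p = 0.117) and did not pass over all tested rows. Taken as a single value its exact permutation p was 0.0286, the smallest that 4 against 4 libraries can give. Groups that do not overlap in this direction were found in 10.3% of all tested rows, and in 15.6% in either direction.

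Cdkn1c encodes p57 and was the most abundant of the 7 genes. It lies on chr7:143458339-143461059 (minus strand) and stood at place 40 of all rows by mean level. The cKO replicates 1 to 4 held 1560, 1752, 1905 and 2167 TPM. The control replicates held 2417, 2424, 1992 and 1886 TPM. The groups overlapped, with cKO replicate 4 above control replicates 3 and 4. The log2 difference was -0.24 (SE 0.116, limma adjusted p = 0.240, 95% interval -0.498 to 0.017), so the interval held both no change and a decrease by nearly 0.50.

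Among the INK4 genes, Cdkn2d, which encodes p19 of this family, was the most abundant. Its row (chr9:21288459-21291421, minus strand) held 63.1, 66.4, 59.99 and 63.5 TPM in cKO replicates 1 to 4 and 65.9, 71.7, 70.3 and 75.1 TPM in the control replicates. Only cKO replicate 2 lay above a control library, replicate 1. The log2 difference was -0.16 (SE 0.0526, limma adjusted p = 0.102) and did not pass over all tested rows. Cdkn2c, which encodes p18, lies on chr4:109660876-109666756 (minus strand). It ranged from 9.62 to 12.6 TPM in cKO and from 11.03 to 15.2 TPM in control, with overlapping groups and a log2 difference of -0.15 (SE 0.107, limma adjusted p = 0.434).

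Cdkn2b encodes p15, an inhibitor known for its induction by TGF-beta. Its row (chr4:89306289-89311032, minus strand) held 1.22, 1.78, 0.803 and 1.495 TPM in cKO replicates 1 to 4. The control replicates held 0.284, 0.630, 0.573 and 0.662 TPM. Each cKO library was above each control library, at levels near 1 TPM and with the depth unknown. Of the tested rows, which do not include this one, 5.33% had groups apart in this direction. The share among rows of lower level was not computed. With a mean of 0.930 TPM the row missed the minimum for the fit, and the exact permutation test, two-sided over 70 assignments, gave p = 0.0286 for a log2 difference of 0.59. Tested with all low rows it had a limma adjusted p of 0.123. Without any 1 of the control libraries the exact permutation p was 0.0571, with log2 differences from 0.50 to 0.63. Without any 1 of the cKO libraries it was 0.0286, the smallest value possible there. Groups that are apart with all libraries must stay apart when 1 is left out, so that is no further result. On the log2(TPM + 1) scale its change is understated: the mean was 2.46 times the control mean, and the log2 difference was 1.16 with a pseudocount of 0.1 and 0.19 with a pseudocount of 5. A predicted gene, Gm12610, overlaps it on the opposite strand at a mean of 0.0491 TPM, and the use of strand in counting is not given in the sources used here.

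Cdkn2a (chr4:89274473-89294619, minus strand) was the least abundant. It was listed at 0.377, 0.331, 0.155 and 0 TPM in cKO replicates 1 to 4 and at 0.231, 0, 0.196 and 0 TPM in the control replicates. The groups overlapped (exact permutation p = 0.4). A single row covers the transcripts for the INK4 protein and for Arf, so they could not be told apart.

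In summed level the 7 genes are a Cdkn1c pool with smaller additions. Cdkn1c made up 92.01% to 94.6% of their summed TPM in the control libraries and 83.96% to 89.9% in cKO. The share of Cdkn1a was 0.968% to 1.58% in control and 5.70% to 10.2% in cKO. In control the order of mean levels was Cdkn1c, Cdkn2d, Cdkn1b, Cdkn1a, Cdkn2c, Cdkn2b and Cdkn2a. Cdkn1b and Cdkn1a were the one pair of neighbours whose ranges overlapped between libraries, though Cdkn1b was higher within each of the 4 control libraries. In cKO Cdkn1a moved to second place, above Cdkn2d, and no neighbours overlapped.

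The change of Cdkn1a was compared directly with that of each other gene through the difference of their log2(TPM + 1) within a library. Cdkn1a gained 2.73 on Cdkn1b, 2.74 on Cdkn1c, 2.37 on Cdkn2a, 1.91 on Cdkn2b, 2.65 on Cdkn2c and 2.66 on Cdkn2d on the log2 scale. The pseudocount of 1 enlarges the gains on Cdkn2a and Cdkn2b, whose means over all libraries were under 1 TPM. In plain TPM the cKO mean over the control mean was 5.83 for Cdkn1a, 2.02 for Cdkn2a and 2.46 for Cdkn2b. Under 13 alternatives the gain was 1.93 to 2.45 on Cdkn2a, 1.38 to 2.16 on Cdkn2b and 2.47 to 2.93 on the others. Each of these 6 comparisons had an exact permutation p of 0.0286, also after Benjamini-Hochberg adjustment over the 6, which is the smallest value the design can give. All 6 use the same Cdkn1a values, whose groups lie far apart, so they are not 6 separate results. The ratio of Cdkn1a to Cdkn1b TPM shows the gain within libraries. It lay between 0.738 and 0.909 in control and between 4.59 and 7.46 in cKO.

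**Figure D2:**
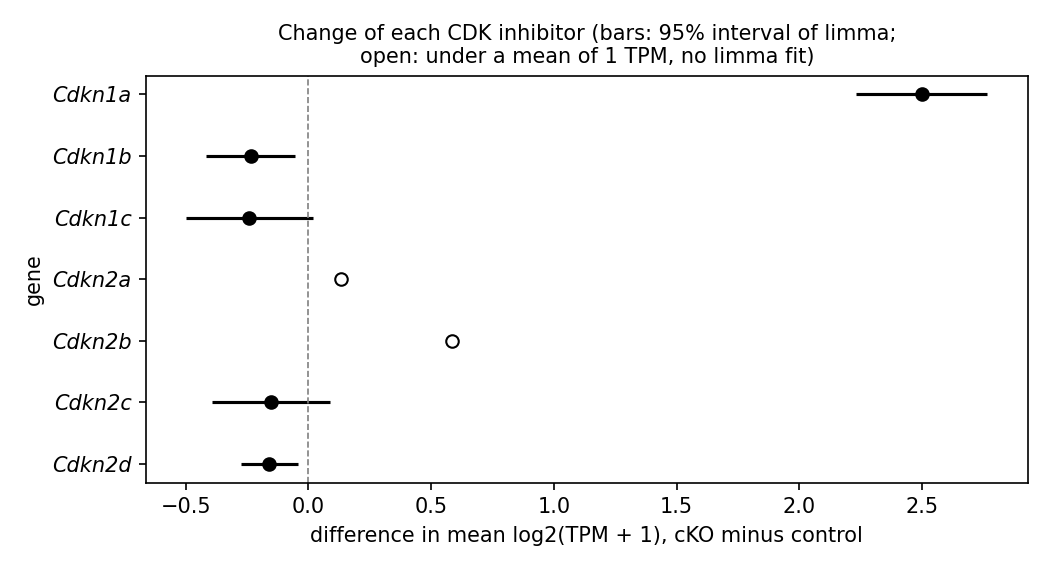
Difference in mean log2(TPM + 1), cKO minus control, on the horizontal axis for each CDK inhibitor gene, with bars for the 95% interval of limma, not adjusted for the number of genes, and open symbols for the genes under the minimum level. Cdkn1a stands at 2.50 with an interval from 2.23 to 2.77, and the other tested genes lie between -0.24 and -0.15.

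Neighbouring rows were examined for each gene. Trp53cor1, a long non-coding RNA also known as lincRNA-p21, lies 11852 bp from Cdkn1a on the opposite strand (chr17:29057474-29079126). It stood at 6.81, 7.13, 7.47 and 6.90 TPM in cKO replicates 1 to 4. The control replicates held 2.97, 2.66, 3.15 and 2.99 TPM. The groups did not overlap, and the log2 difference was 1.04 (SE 0.0747, limma adjusted p = 9.02e-05). The nearest row with at least 1 TPM on the other side of Cdkn1a, the pseudogene Rpl35a-ps3 at 36214 bp, had a log2 difference of 0.17 (limma adjusted p = 0.786), and its reads may be shared with its parent gene.

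Lockd, a long non-coding RNA gene 3566 bp downstream of Cdkn1b on the same strand, had 12.4 TPM ± 2.88 in cKO and 17.9 ± 2.31 in control (SD, n = 4). Its groups overlapped and its log2 difference of -0.52 did not pass (limma adjusted p = 0.0724). Faf1, 9870 bp from Cdkn2c on the opposite strand, had a log2 difference of -0.32 (limma adjusted p = 0.0327), a call that held under 6 of 18 alternatives. The other neighbours, Gpr19, Kcnq1, Slc22a18, Mtap, Gm12669, Rnf11, Kri1 and Slc44a2, did not pass, with log2 differences from -0.24 to 0.23.

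The genes whose profile over the 8 libraries lay nearest to that of Cdkn1a were sought by the root mean square distance between log2(TPM + 1) values, each gene centred on its own mean. Over 8 libraries the 5 nearest were Eda2r (0.162), Ano3 (0.274), Cox6b2 (0.396), Dglucy (0.415) and Pmaip1 (0.493), where Cdkn1a itself had a root mean square of 1.26 about its mean. Eda2r encodes a receptor of the tumour necrosis factor receptor family and Pmaip1 the cell death protein Noxa, both known p53 targets. Cox6b2 encodes a cytochrome oxidase subunit best known from testis. Since the groups differ so much for Cdkn1a, a short distance requires a large difference between the groups in the same direction, and it also favours a like order within a group. The distances were computed with a pseudocount of 1 alone. With pseudocounts of 0.1 and 5 the log2 difference of Ano3 was 3.32 and 0.99 and that of Pmaip1 was 2.28 and 0.80, while Cdkn1a stood at 2.53 and 2.35, and the order of distances under those pseudocounts was not computed. In the cKO libraries 1 to 4 Eda2r held 22.3, 20.1, 25.7 and 19.9 TPM. Replicate 3 was highest and replicate 4 lowest for Eda2r, as for Cdkn1a, and the same held for Ano3 (7.57 and 4.97 TPM) and Pmaip1 (6.33 and 4.60 TPM). For Cox6b2 and Dglucy replicate 3 was highest and replicate 2 lowest.

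**Figure D3:**
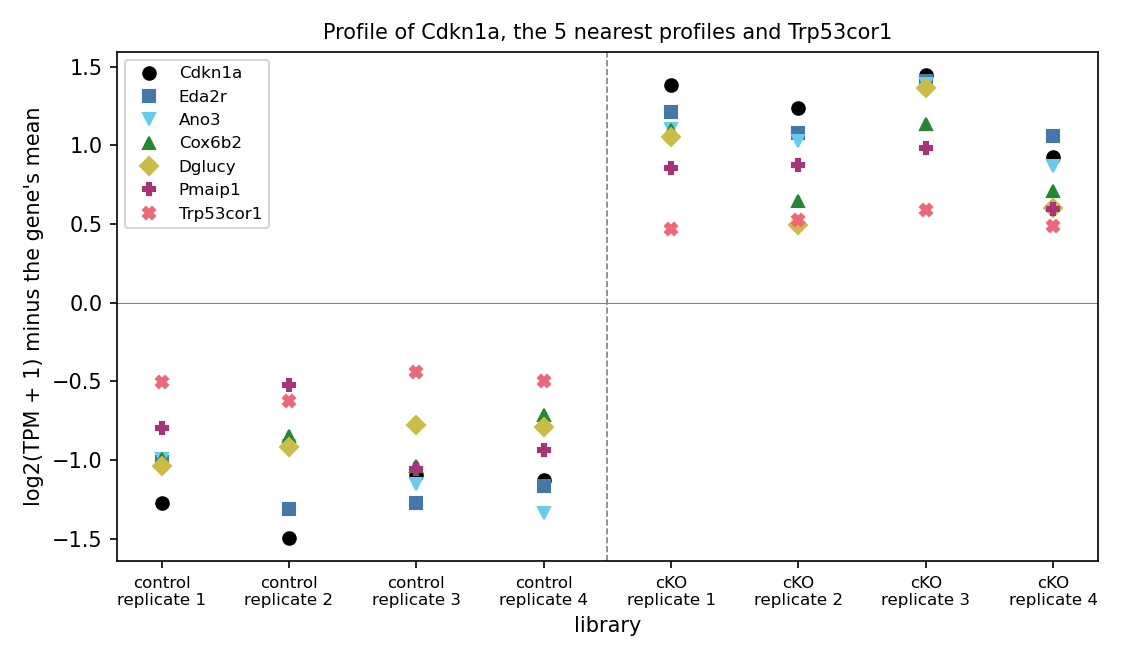
Log2(TPM + 1) minus the gene's mean over the 8 libraries on the vertical axis, for Cdkn1a, the 5 genes with the nearest profile and the neighbouring Trp53cor1, with libraries on the horizontal axis. All 7 genes lie below 0 in the 4 control libraries and above 0 in the 4 cKO libraries, and Trp53cor1 has the smallest distance between groups.

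The cyclins and kinases that the inhibitors bind were then counted. Of 12 such genes, 7 passed lower and 1 passed higher in cKO, against 4.23% and 2.16% of all tested rows. Their median log2 difference was -0.23, and that of all tested rows was -0.02. The gene that rose was Ccnd2, a D-type cyclin that works with Cdk4 and Cdk6. It went from 236 ± 9.41 to 334 ± 20.04 TPM (SD, n = 4), a log2 difference of 0.50 (limma adjusted p = 0.00129). Ccnd1 (0.15), Ccnd3 (0.06), Cdk6 (0.18) and Cdk4 (-0.08) did not pass. Genes that fell were the E-type cyclins Ccne1 (-0.22) and Ccne2 (-0.38), the S-phase and mitotic cyclins Ccna2 (-0.41), Ccnb1 (-0.33) and Ccnb2 (-0.43), and the kinases Cdk1 (-0.29) and Cdk2 (-0.25). Ccna2 held 93.2 to 113 TPM in cKO and 136 to 145 TPM in control, without overlap. Of the 8 calls, Ccnd2, Ccna2 and Ccnb2 held under all 18 alternatives. Cdk1 held under 10, Ccnb1 and Cdk2 under 7, Ccne1 under 5 and Ccne2 (limma adjusted p = 0.0498) under 4. In place of 8 calls there were 3 with a replicate block and 3 after quantile normalization. Leaving out cKO replicate 1 or 3 gave 4 calls, cKO replicate 4 gave 5, and any 1 of the 4 control libraries gave 3.

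Retinoblastoma-type pocket proteins and E2F factors stand downstream of these kinases. Of 13 tested genes 2 passed, both lower, against 4.23% of all tested rows, and the median log2 difference was -0.16, against -0.02 over all tested rows. E2f1, an activator of S-phase genes, held 23.9, 24.4, 27.05 and 33.3 TPM in cKO replicates 1 to 4. It held 43.7, 41.95, 43.8 and 38.8 TPM in the control replicates. Its log2 difference was -0.62 (SE 0.0957, limma adjusted p = 0.00772), and cKO replicate 4, which had the least Cdkn1a, was nearest to control. E2f8, which is an atypical repressor of the family, had a log2 difference of -0.41 (limma adjusted p = 0.0165). Its cKO library nearest to control was replicate 3 (26.5 TPM), so this order was not shared by the 2 genes. E2f4 (-0.17) and Tfdp1 (-0.16) were next by p and did not pass. Without cKO replicate 1 a single gene passed.

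Most genes for the turnover of the inhibitors and their partners did not pass the test. Of 18 tested, 5 passed, all lower, against 4.23% of all tested rows, and the median log2 difference was -0.15, against -0.02. Cdc20 (-0.38) and Fzr1 (-0.26) are activators of the anaphase-promoting complex, and Ube2s (-0.31) is one of its ubiquitin-conjugating enzymes. Cks2 (-0.33) is a small CDK-binding protein, and Dtl (-0.26) directs p21 to a Cul4 ligase during replication. Skp2 (-0.16) and Cks1b (-0.31), which mark p27 for degradation, and Pcna (-0.28) did not pass, with limma adjusted p from 0.082 to 0.281. Cdc20 was called under all 18 alternatives, Ube2s under 14, Cks2 under 10, Fzr1 under 5 and Dtl (limma adjusted p = 0.0497) under 3. In place of 5 calls, leaving out cKO replicate 1 or 4 gave 3, cKO replicate 2 or any 1 control library gave 2, and cKO replicate 3 gave 1.

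Of 21 tested transcription regulators of Cdkn1a and Cdkn1b, 1 passed, a share near the 6.4% of all tested rows, and the median log2 difference was 0.02. Mdm2, the ubiquitin ligase that limits p53 and is itself a p53 target, went from 39.9 ± 1.20 to 47.1 ± 0.966 TPM (SD, n = 4), a log2 difference of 0.24 (limma adjusted p = 0.0154). The RNA of p53 itself, Trp53, stood at 93 to 99.4 TPM in cKO and at 79.2 to 96.8 TPM in control (log2 difference 0.16, limma adjusted p = 0.145), and Foxo3 (0.24) and Meis1 (-0.13) did not pass either. The other p53-family genes, Trp63 and Trp73, had means under 1 TPM. Without control replicate 3 the Mdm2 call was lost and none of the 21 passed, with 2 at an unadjusted p under 0.05, and without control replicate 4 there were 2 calls. With all libraries 3 of the 21 had an unadjusted p under 0.05, where 3687 of 15541 tested rows had one.

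Repressors of the Cdkn2a and Cdkn2b locus, mostly Polycomb proteins, had 1 call among 12 tested genes, also near the 6.4% of all tested rows, with a median log2 difference of -0.09. Cbx8 fell from 7.48 ± 0.379 to 5.28 ± 0.274 TPM (SD, n = 4, log2 difference -0.43, limma adjusted p = 0.00887) and was called under all 18 alternatives. Ezh2 (-0.20) and Suz12 (-0.18) did not pass. Of 9 tested genes of the imprinted domain around Cdkn1c, 1 passed, against 6.4% of all tested rows, with a median log2 difference of -0.09. Cd81, a tetraspanin, had a log2 difference of 0.30 (limma adjusted p = 0.0337), while Osbpl5 (0.19), Kcnq1 (-0.24) and Cars (-0.20) did not pass. Leaving out cKO replicate 2 gave 2 calls there. When cKO replicate 1 or any 1 control library was left out, no gene passed by limma, with 5 or 6 at an unadjusted p under 0.05. With all libraries 6 of the 9 had an unadjusted p under 0.05, where 3687 of 15541 tested rows had one. Kcnq1ot1, the long non-coding RNA that silences Cdkn1c on the paternal copy, stood at 2.83 TPM in cKO and 2.41 TPM in control and did not pass (log2 difference 0.16, limma adjusted p = 0.357). It lies within Kcnq1 on the opposite strand, so their reads may not have been told apart.

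**Figure D4:**
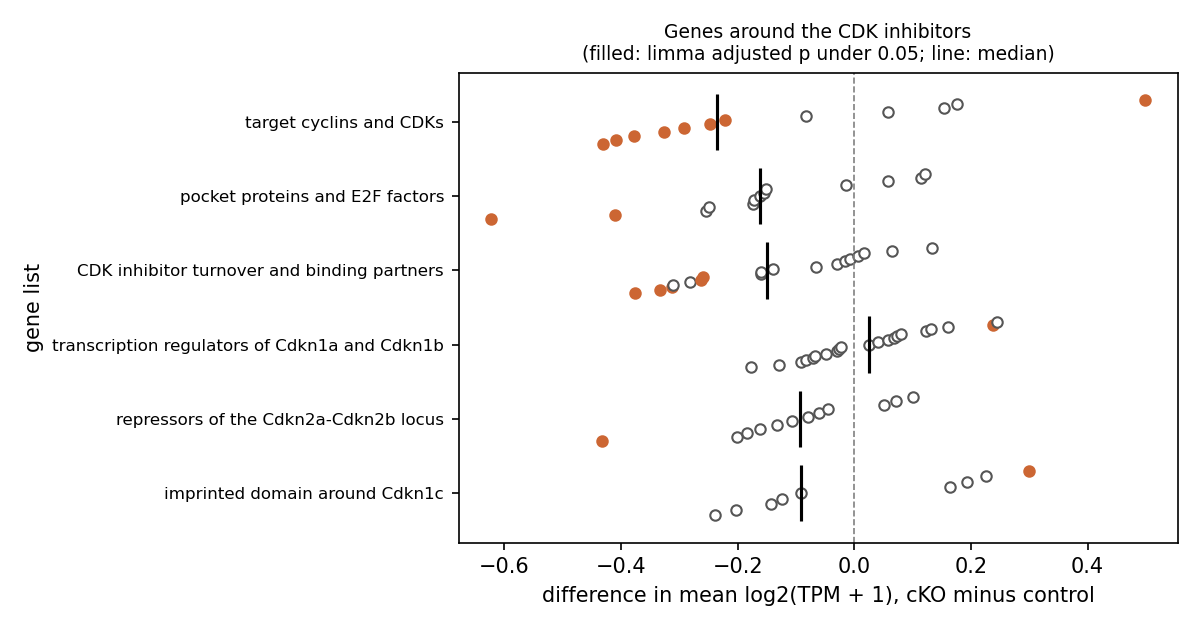
Difference in mean log2(TPM + 1), cKO minus control, on the horizontal axis for each tested gene of the 6 lists around the CDK inhibitors, with filled points for a limma adjusted p under 0.05 and a line at each list's median. In the list of target cyclins and CDKs 7 genes lie at the lower end as filled points and Ccnd2 alone lies as a filled point at the higher end.

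In bulk tissue, fewer cells of a type and less RNA per cell cannot be told apart. Epicardial and mesenchymal markers moved with the groups, and the counts of all marker lists stand beside 2.16% of all tested rows called higher and 4.23% called lower. Of 8 epicardial genes 5 passed higher, and their summed level was 348 to 443 TPM in cKO against 284 to 319 TPM in control. Of 9 mesenchymal genes 4 passed higher, with sums of 871 to 1060 TPM against 585 to 762 TPM. The 9 trabecular genes summed to 6520 to 9284 TPM in cKO and to 5384 to 6473 TPM in control, with 1 passing higher (Nppb) and 2 lower (Gja5 and Cited1). Most of that sum was Nppa, with means of 5844 TPM in cKO and 4276 TPM in control, which did not pass (limma adjusted p = 0.0768). Of the 9 log2 differences 4 were positive and 5 negative, with a median of -0.08. The sums of cardiomyocyte genes overlapped between groups, at 54260 to 57499 TPM in cKO and 55538 to 60521 TPM in control. Of these 17 genes 14 were lower in cKO and 3 higher, with a median log2 difference of -0.05, against -0.02 over all tested rows. The 1 that passed was Nkx2-5, which was lower. Of 10 endothelial and 7 tested macrophage genes none passed by limma, with 5 and 2 at an unadjusted p under 0.05. Of all 15541 tested rows 3687 had such a p. In cKO 9 of the 10 endothelial and all 7 macrophage genes were higher, where 6863 of all tested rows were higher and 8678 lower. All 11 erythroid genes had lower means, but for each of them control replicate 4 was the highest of the 8 libraries. Globin rows took 0.838% of TPM in that library, 0.231% to 0.383% in the other controls and 0.209% to 0.445% in cKO. Whether these means stay lower without that library was not tested. Of the 11 erythroid and 5 compact layer genes 1 each passed, both lower (Tspan33 and Hand1). None of these markers was at 0 in all libraries. The part of these shifts in the changes of the inhibitors and their targets was not tested.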

How the data were processed

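Members and gene lists were chosen with earlier results of these data known. The authors deposited 1 table of TPM values, and each of its 8 columns summed to 1000000 within rounding. FastQC, Trim Galore 0.6.7, HISAT2 2.2.1, StringTie 2.2.1, featureCounts and DESeq2 and the build GRCm38 are named per the submitters' processing notes, with no role or order. The annotation is not given in the sources used here. The texts disagree on RNA extraction (TRIzol or a column kit) and library type (poly(A) selection or ribosomal RNA depletion). TPM keeps no depth, so no counting error is given. Of 49589 rows matched to RefSeq GRCm38.p6 by symbol and chromosome, 49588 had the same coordinates.

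Values were analysed as log2(TPM + 1), which understates changes of low genes, in R 4.3.3 with limma 3.58.1 (lmFit, eBayes with a trend, two-sided, Benjamini-Hochberg over 15541 rows with a mean of at least 1 TPM). Of the 7 genes, 5 passed this minimum. Single values were also compared by an exact two-sided permutation test over 70 assignments. The procedure was tested on simulated data. Alternatives were a pseudocount of 0.1 or 5, no minimum, a minimum of 5 TPM, 3 other scalings, no trend, array weights, a replicate block and leaving out each library.

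Genes named were the 7 members, the targeted gene, the 4 of each list with the smallest p and any others called, the nearest rows with at least 1 TPM, and the 5 nearest profiles (predicted genes left out). A few further list members and markers were named after their values were seen, and 1 gene that the rule names is not reported here. Of the 6 lists around the inhibitors, 1 older symbol was matched through a RefSeq synonym and 1 was a synonym of a listed gene. Promoters came from RefSeq, and in all 9 windows the bases after the start were found in a GENCODE M21 transcript. The motif search was chosen after the data were seen.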

Additional observations from a re-analysis of the deposited data

Results flagged for a closer look

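Among 45 genes named around the inhibitors, 90 groups of 4 libraries were examined for 1 library far from the other 3, and 6 had one (gap to the nearest library over the group's range from 0.861 to 0.974). Chance gives about 1 in 20 groups. None of the 7 inhibitors was among them. Ccnd2 stood at 364 TPM in cKO replicate 3, where the other cKO libraries held 321 to 327 TPM. Ccnb2 stood at 72.8 TPM in the same library, against 79.5 to 80.6 TPM in the others. Ccne2 stood at 25.8 TPM in control replicate 3, against 20.5 to 21.2 TPM in the others. Fzr1 stood at 97.9 TPM in control replicate 4, against 90.6 to 91.5 TPM. Foxo3 stood at 22 TPM in cKO replicate 2, against 19.3 to 19.7 TPM. Suz12 stood at 43.1 TPM in control replicate 3, where the other 3 libraries all rounded to 43.8 TPM.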

How the results depend on the processing

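The direction and call of Cdkn1a held under all 19 alternatives, with log2 differences from 2.35 to 2.61 and limma adjusted p from 4.19e-06 to 0.000819. Cdkn1b, Cdkn1c, Cdkn2c and Cdkn2d kept their direction and stayed short of the threshold under all 18, and Cdkn2a under all 14 that gave it a value. Cdkn2b was tested by permutation alone in all settings but 1, and with no minimum level it did not pass limma's test (0.59, adjusted p = 0.123). With single libraries left out it ranged from 0.49 to 0.70, with an exact permutation p of 0.0571 without each control library and 0.0286 without each cKO library. The settings that act on the limma fit gave no value for Cdkn2a or Cdkn2b otherwise.

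Counts of calls over all rows (994) were 347 with no minimum level, 609 without a trend and 420 with the replicate block, and 388 to 936 with single libraries left out. Target cyclins and CDKs (8 calls) gave 3 with no minimum level, after quantile normalization, without a trend and with the replicate block, and 3 to 7 with libraries left out. Pocket proteins and E2F factors (2) gave 1 with no minimum level and 1 to 2 with libraries left out. Turnover genes and partners (5) gave 1 with no minimum level, 3 under each other scaling and with the replicate block, 2 without a trend, and 1 to 3 with libraries left out. Transcription regulators (1) gave 0 with the replicate block (3 at an unadjusted p under 0.05) and 0 to 2 with libraries left out. Repressors of the Cdkn2a and Cdkn2b locus (1) gave 2 with a minimum of 5 TPM. The imprinted domain (1) gave 2 with a minimum of 5 TPM and under each other scaling, 0 with no minimum level, without a trend and with the replicate block (6 at an unadjusted p under 0.05 in each), and 0 to 2 with libraries left out. With fewer libraries fewer degrees of freedom remain, and otherwise the cause was not tested.

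The titles number the replicates in each group and state no pairing between the groups. Deviations of same-numbered libraries from their group means had correlations over genes of -0.011, 0.067, 0.058 and -0.089 for replicates 1 to 4. Differently numbered libraries had -0.128 to 0.122, and these values cannot settle whether libraries were paired. The block changed no call of the 5 inhibitors in the limma fit (Cdkn2a and Cdkn2b were not in it). The neighbours Rpl35a-ps3 (-0.098 without cKO replicate 2 and -0.01 without control replicate 4, range -0.098 to 0.38 with libraries left out) and Slc44a2 (-0.025 without cKO replicate 1 and -0.028 without control replicate 2, range -0.028 to 0.066) changed sign without passing. Depth is unknown, which limits Cdkn2a and Cdkn2b most.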

Other observations

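The 29 windows that held the p53 consensus with at most 1 mismatch belonged to 29 genes, of which 7 had a mean of at least 1 TPM here. Of these, 3 passed higher in cKO, 1 passed lower and 3 did not pass, with a median log2 difference of 0.07. Cdkn1a, known to rise before the search was made, is 1 of the 3 that passed higher, so its place in that count is no new result. The search was made after the data were seen, and of all tested rows 2.16% passed higher and 4.23% lower. Beside Cdkn1a, the genes that rose were Ccng1, a cyclin-like p53 target, and Rps27l, a ribosomal protein paralog also known as a p53 target, whose reads may be shared with Rps27. Ccng1 stood at 323, 294, 301 and 260 TPM in cKO replicates 1 to 4 and at 119, 126, 120 and 121 TPM in the control replicates (log2 difference 1.27, limma adjusted p = 7.29e-06). Rps27l stood at 289, 271, 276 and 243 TPM in cKO and at 202, 187, 172 and 197 TPM in control (log2 difference 0.51, limma adjusted p = 0.00359). In both genes the lowest cKO library was replicate 4, as for Cdkn1a. Mthfd1, a folate enzyme, passed lower (-0.23, limma adjusted p = 0.043), and Gtse1, Eprn and Calhm2 did not pass.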
